A study of Mus musculus with 9 samples.

Results

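Ventral hippocampus of mice susceptible to restraint stress (SUS) was compared with that of sedentary controls (SED) in 6 of the 9 libraries of the series, 3 per group, chosen by their titles. All mice were wild-type C57BL/6J males, 8 weeks old on arrival. SUS mice were immobilised in tubes for 2 hours a day on 14 days, while SED mice are labelled as untreated. The third group of 3, restrained mice that then ran at low intensity for 2 weeks (SUS_LE), entered the model only to share its estimate of the spread. The protocol has control groups stay sedentary during those weeks. How susceptibility was scored, and how long after the last restraint the tissue was taken, is not given in the sources used here, so selection for susceptibility and restraint itself cannot be told apart. All libraries are whole tissue and carry 1 batch label. Titles number them as mice, but nothing says that each is a separate animal or that none is pooled, so p-values measure the spread between these samples.

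The ventral hippocampus is the part of the hippocampus that projects to the amygdala, hypothalamus and prefrontal cortex and takes part in anxiety-like and stress responses. Among its main cells are glutamatergic pyramidal cells of CA1 to CA3, fed by granule cells of the dentate gyrus and held in check by GABAergic interneurons. Repeated stress raises glucocorticoids, which act through the receptors Nr3c1 and Nr3c2, and neuronal firing itself turns on immediate early genes within minutes.

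Totals of the 6 libraries ran from 14172344 to 14783441 counts. Levels are counts per 1000000 counts of the library (CPM), in the order of libraries 1, 2 and 3 of a group. A single value after a gene, written as log2 with its SE, is the log2 fold change of SUS over SED, and the median of a list is that of its members' log2 fold changes. Mitochondrially encoded genes held 13.3% to 13.4% of counts in SED and 12.2% to 13.1% in SUS. The pyramidal and granule cell markers Wfs1 and Prox1 were well above 0 in every library. Wfs1, of CA1, was at 82.8, 103 and 71.3 CPM in SED and 139, 147 and 109 CPM in SUS. Prox1, of the dentate gyrus, was at 108, 88.9 and 118 CPM in SED and 87.9, 75.5 and 74.3 CPM in SUS. SUS 1 stood apart in markers of tissue next to the hippocampus. The 30 tested markers of choroid plexus epithelium, the secretory lining of the ventricles, summed to 7332, 6075 and 5131 CPM in SED 1 to 3 and 418, 4477 and 9772 CPM in SUS 1 to 3. Wfdc2 was the only one of them listed at 0 in any of the 6 libraries (SUS 1). Motile cilia and ependyma markers summed to 385, 333 and 326 CPM in SED 1 to 3 and 196, 319 and 390.0 CPM in SUS 1 to 3, lowest again in SUS 1. Markers of meningeal fibroblasts summed to 1418, 1357 and 1267 CPM in SED 1 to 3 and 1231, 838 and 1759 CPM in SUS 1 to 3, lowest in SUS 2. Values without SUS 1, and for some lists with the choroid plexus score in the model, stand beside many of the results, and beyond these the part of neighbouring tissue in them was not tested. SUS 1 also lay furthest along a trend with base composition: the rank correlation of a gene's deviation with its GC content was 0.381, −0.0363 and 0.173 in SUS 1 to 3 and −0.333, −0.129 and −0.193 in SED 1 to 3. It is a description over 14217 genes, which are not independent. The log2 fold change of SUS over SED itself rank-correlated with GC content at 0.352 and with transcript length at −0.231, over 14930 genes. The trend thus ran along the comparison of the groups.

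**Figure D1:**
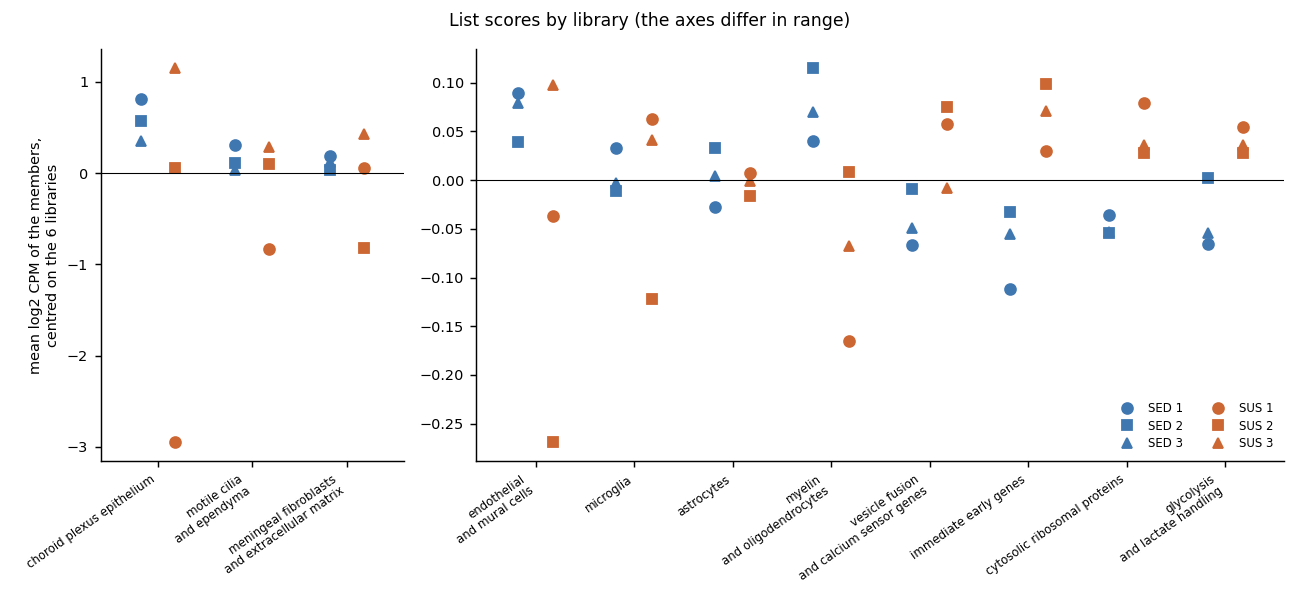
Mean log2 CPM of the members of 11 gene lists in each library, centred on the 6 libraries; circles, squares and triangles are libraries 1, 2 and 3, SED in blue and SUS in orange, and the panels differ in range. The choroid plexus score of SUS 1 (−2.95) lies far below the other 5 libraries, and the ribosomal protein scores of the 3 SUS libraries lie above those of the 3 SED libraries.

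Differences between SUS and SED were small in size. Of 16106 tested genes, 9 in 10 had a log2 fold change between −0.36 and 0.35, 774 exceeded 0.5 in either direction and 100 exceeded 1. By edgeR's quasi-likelihood test with Benjamini-Hochberg adjustment 0 genes (0%) passed an adjusted p of 0.05, the smallest being 0.0738, and limma voom called 0 as well. Without SUS 3 edgeR called 74 genes, without SUS 2 27, without SED 2 3, and 0 without SED 1, SED 3 or SUS 1. At an unadjusted p under 0.05, edgeR had 1100 genes with higher values in SUS (6.83%) and 1008 with lower values (6.26%), 13.1% in all, where 805 genes in all would be expected with no difference. The 3 SUS values lay wholly above the 3 SED values in 1566 genes (9.72%) and wholly below in 1379 (8.56%), 18.3% in all. DESeq2 called 53 genes (0.329%), 24 higher (0.149%) and 29 lower (0.18%). In 52 of them, all but Tmem81, the groups did not overlap, which selection by p favours. Without SED 1, 2 or 3 the count of DESeq2 calls was 0, 41 and 1, and without SUS 1, 2 or 3 it was 6, 96 and 163. DESeq2's adjusted p is given below where it is under 0.05, but only for genes printed with their edgeR adjusted p. Genes printed with log2 and SE alone carry no DESeq2 value, and DESeq2 called some of them too. Below, "higher" and "lower" describe values, and no single gene passed the edgeR threshold. SUS 1 was the most extreme SUS library in 732 of the 1100 genes with higher values (66.5%) and in 634 of the 1008 with lower values (62.9%), so counts without it are given beside many of the gene groups. Where 2 counts follow a list, the first is of members with higher and the second of members with lower values at an unadjusted p under 0.05, and trends are those of GC content and length. Each pair is to be read against the 6.83% and 6.26% of all tested genes. Without SUS 1, 4.52% and 4.59% of genes were under an unadjusted p of 0.05 with higher and lower values. These shares were 6.91% and 7.6% without SUS 2, and 7.59% and 8.69% without SUS 3. They were 4.47% and 4.58% without SED 1, 6.20% and 5.68% without SED 2, and 4.68% and 4.24% without SED 3. With the choroid plexus score in the model they were 4.81% and 5.10%. Removing each library's GC and length trend left 5.76% and 3.02%, 1414 genes in all, with a smallest edgeR adjusted p of 0.222.

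**Figure D2:**
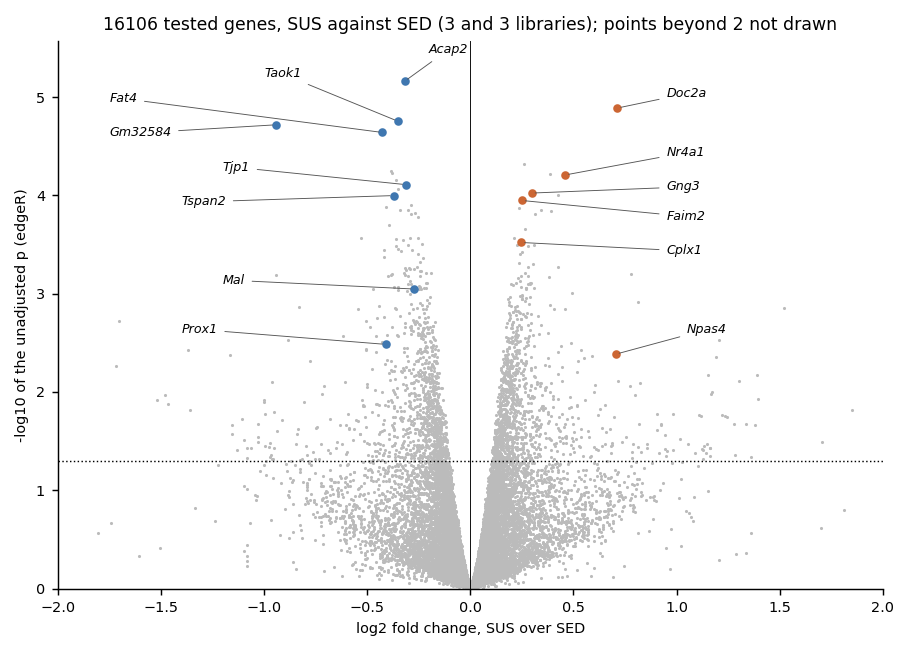
Log2 fold change of SUS over SED (horizontal axis) against −log10 of edgeR's unadjusted p (vertical axis) for the tested genes, with 14 genes of the text named; the dotted line marks an unadjusted p of 0.05, and the 10 genes beyond 2 on the horizontal axis are not drawn. The named genes lie within 1 log2 unit of 0, with Acap2 and Doc2a at the top.

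Immediate early genes, the first genes switched on when a neuron fires, had higher values in 26 of 37 tested members, against 49.9% of all genes. At an unadjusted p under 0.05, 9 had higher values (24.3%, against 6.83% of all genes) and 1 lower. The median log2 fold change was 0.11, against −0.000386 over all tested genes. Nr4a1, an orphan nuclear receptor induced by calcium signals, stood at 30.4, 33.3 and 32.4 CPM in SED and 47.2, 47.3 and 37.6 CPM in SUS. For Nr4a1 the log2 fold change was 0.46 (SE 0.09, edgeR adjusted p = 0.0929; DESeq2 adjusted p = 0.0137). SUS 1 and SUS 2 were well above every control and SUS 3 was only a few CPM above the highest. Npas4, a neuron-specific transcription factor induced by membrane depolarisation, stood at 13.2, 15.5 and 11 CPM in SED and 24.4, 21 and 19.3 CPM in SUS. Npas4 had a log2 fold change of 0.70 (SE 0.19, edgeR adjusted p = 0.188; DESeq2 adjusted p = 0.0286). Its lowest SUS value was above its highest SED value by several CPM, a 1.63-fold difference in the fit. Per1, a clock gene that activity and glucocorticoids also induce, stood at 50.5, 59.6 and 56.2 CPM in SED and 76.5, 64.9 and 69.1 CPM in SUS. For Per1 the log2 fold change was 0.34 (SE 0.07, edgeR adjusted p = 0.0929; DESeq2 adjusted p = 0.0316). Arc, which acts on glutamate receptor traffic at the synapse, stood at 36.3, 37.7 and 42.3 CPM in SED and 43, 50.6 and 53.9 CPM in SUS. Arc had a log2 fold change of 0.34 (SE 0.09, edgeR adjusted p = 0.165), with SUS 1 barely above SED 3. Egr1, a zinc finger transcription factor, stood at 82.1, 95.2 and 92.3 CPM in SED and 112, 135 and 103 CPM in SUS. For Egr1 the log2 fold change was 0.37 (SE 0.13, edgeR adjusted p = 0.285). Vgf, the precursor of secreted neuropeptides, stood at 97.6, 102 and 99.8 CPM in SED and 122, 123 and 106 CPM in SUS. Vgf had a log2 fold change of 0.23 (SE 0.06, edgeR adjusted p = 0.158).

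Members of the group did not move as one. Fos, the classic marker of recent firing, stood at 5.06, 7.01 and 8.45 CPM in SED and 4.12, 6.38 and 6.31 CPM in SUS. For Fos the log2 fold change was −0.29 (SE 0.20, edgeR adjusted p = 0.569). Its SUS values lay inside or below the SED range. Bdnf, a growth factor induced by activity, stood at 37.2, 29.8 and 34.4 CPM in SED and 35.7, 39 and 33.2 CPM in SUS. Bdnf had a log2 fold change of 0.09 (SE 0.09, edgeR adjusted p = 0.702), with the groups overlapping. Picked after their values were seen, Fosb (log2 0.43, SE 0.18) and Junb (log2 0.31, SE 0.11), subunits of the AP-1 factor, had higher values without overlap, and Sik1, a kinase induced by cAMP, was the member with lower values under an unadjusted p of 0.05 (log2 −0.31, SE 0.13). The count of 9 was 10 without SUS 1, 7 without SED 1 and 8 with GC and length trends removed.

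Promoters of the genes just described are shown because activity is known to reach many such genes through CREB, which binds the letters TGACGTCA or the shorter TGACG. Each sequence is the 250 bases before a RefSeq start in GRCm38.p6, read 5′ to 3′ on the gene's strand, and capitals mark TGACG on either strand (CGTCA on the other) and CACGTG, the E-box bound by clock and other factors. Nr4a1 is on the plus strand at chr15:101266596-101266845, Npas4 on the minus strand at chr19:4989972-4990221, Per1 on the plus strand with starts at chr11:69098699-69098948 and chr11:69099902-69100151, and Fos on the plus strand at chr12:85473640-85473889. No promoter is shown for Arc, Egr1 and Vgf.
Nr4a1: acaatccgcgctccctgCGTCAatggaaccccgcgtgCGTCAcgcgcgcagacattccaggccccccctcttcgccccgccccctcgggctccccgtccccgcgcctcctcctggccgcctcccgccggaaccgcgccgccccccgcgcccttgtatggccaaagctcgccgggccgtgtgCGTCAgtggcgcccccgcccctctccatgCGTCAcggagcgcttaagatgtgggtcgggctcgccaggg
Npas4: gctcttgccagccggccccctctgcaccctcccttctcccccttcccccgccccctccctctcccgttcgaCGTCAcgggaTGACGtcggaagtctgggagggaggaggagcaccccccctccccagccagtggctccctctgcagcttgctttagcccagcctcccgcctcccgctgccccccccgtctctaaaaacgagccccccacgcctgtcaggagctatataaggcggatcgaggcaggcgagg
Per1 first start: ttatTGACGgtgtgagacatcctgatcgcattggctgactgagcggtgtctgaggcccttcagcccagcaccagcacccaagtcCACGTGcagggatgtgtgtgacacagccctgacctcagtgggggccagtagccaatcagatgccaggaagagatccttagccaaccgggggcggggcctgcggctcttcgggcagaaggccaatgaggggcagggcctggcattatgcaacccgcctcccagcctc
Per1 second start: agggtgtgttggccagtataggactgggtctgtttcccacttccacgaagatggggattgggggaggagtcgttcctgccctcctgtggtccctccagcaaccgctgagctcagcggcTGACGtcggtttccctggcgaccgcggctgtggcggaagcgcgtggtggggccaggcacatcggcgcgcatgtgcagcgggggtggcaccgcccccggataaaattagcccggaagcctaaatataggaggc
Fos: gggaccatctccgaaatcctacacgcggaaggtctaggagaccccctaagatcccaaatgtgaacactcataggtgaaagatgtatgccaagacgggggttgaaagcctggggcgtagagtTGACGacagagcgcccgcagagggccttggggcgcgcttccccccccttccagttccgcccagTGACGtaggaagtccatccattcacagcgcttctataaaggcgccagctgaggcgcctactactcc
Nr4a1 held TGACG 4 times, Npas4 and Fos 2 times each, and each Per1 promoter once, the first start also with 1 CACGTG. None of the 5 held TGACGTCA, which contains TGACG on both strands and was in 2 of 44 promoters of the immediate early list (4.55%), 2.31% of promoters of tested genes and 1.55% of all 32851 promoters. TGACG was in 25 of 44 promoters of the immediate early list (56.8%; 31 of its 39 genes had an entry), in 24.5% of 15711 promoters of tested genes and in 17.8% of all. CACGTG was in 15.9%, 7.77% and 6.02% of the same sets. Nr4a1, with higher values, and Fos, with overlapping ones, both hold TGACG, and a match describes letters in this window, not a bound site.

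Genes of transmitter release gave one of the larger groups with higher values. Release needs vesicle and membrane SNARE proteins to zip together, complexin to clamp them, and calcium sensors to trigger fusion. Of 65 tested genes of this machinery 44 had higher values (49.9% of all genes did). Under an unadjusted p of 0.05 were 22 higher (33.8%, against 6.83% of all genes) and 2 lower. In 19 the SUS values were all above SED (9.72% of all genes were). Most steps were small, with a median log2 fold change of 0.05. Doc2a, a high-affinity calcium sensor of spontaneous and asynchronous release, stood at 6.81, 7.71 and 6.96 CPM in SED and 11.7, 12.1 and 11.4 CPM in SUS. For Doc2a the log2 fold change was 0.71 (SE 0.12, edgeR adjusted p = 0.0738; DESeq2 adjusted p = 0.0134). The lowest SUS value exceeded the highest SED value by more than the whole range of either group. Cplx1, a complexin of fast release, stood at 368, 406 and 373 CPM in SED and 479.8, 443 and 437 CPM in SUS. Cplx1 had a log2 fold change of 0.25 (SE 0.06, edgeR adjusted p = 0.124; DESeq2 adjusted p = 0.0134). Stx1a, the plasma membrane SNARE, stood at 67.3, 79.3 and 72.8 CPM in SED and 89.8, 91.8 and 85.2 CPM in SUS. For Stx1a the log2 fold change was 0.28 (SE 0.06, edgeR adjusted p = 0.124). Vamp2, the vesicle SNARE, stood at 808, 881 and 840.1 CPM in SED and 1089, 978 and 933 CPM in SUS. Vamp2 had a log2 fold change of 0.25 (SE 0.06, edgeR adjusted p = 0.134; DESeq2 adjusted p = 0.0146). In all of these genes the groups did not overlap, and SUS 1 was the highest library for Cplx1 and Vamp2 but not for Doc2a or Stx1a.

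The 22 members, listed after their values were seen, included Cplx1, Dnm1, Doc2a, Ppfia3, Rab3a, Rab3b, Rimbp2, Rims3, Rims4, Rph3a, Stx1a, Sv2a, Syn1, Syn3, Syp, Syt11, Syt13, Syt5, Syt7 and Vamp2. They span membrane proteins of the vesicle (Syp, Sv2a), the synapsins that tether vesicles (Syn1, Syn3), the active zone scaffolds Rims3, Rims4, Rimbp2 and Ppfia3, and the Rab3 GTPases. Syp was at log2 0.22 (SE 0.07), Syn1 at log2 0.16 (SE 0.06) and Rab3a at log2 0.13 (SE 0.05). The members with lower values were Doc2b (log2 −0.18, SE 0.08), a close relative of Doc2a, and Stxbp5 (log2 −0.12, SE 0.05), tomosyn, an inhibitor of release. SUS 1 was highest in 15 of the 22, SUS 2 in 7 and SUS 3 in 0, and the list score was −0.07, −0.01 and −0.05 in SED 1 to 3 and 0.06, 0.08 and −0.01 in SUS 1 to 3, so SUS 3 was about level with SED 2. The count was 15 without SUS 1, 13 without SED 1, 20 with GC and length trends removed and 16 with the choroid plexus score in the model.

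**Figure D3:**
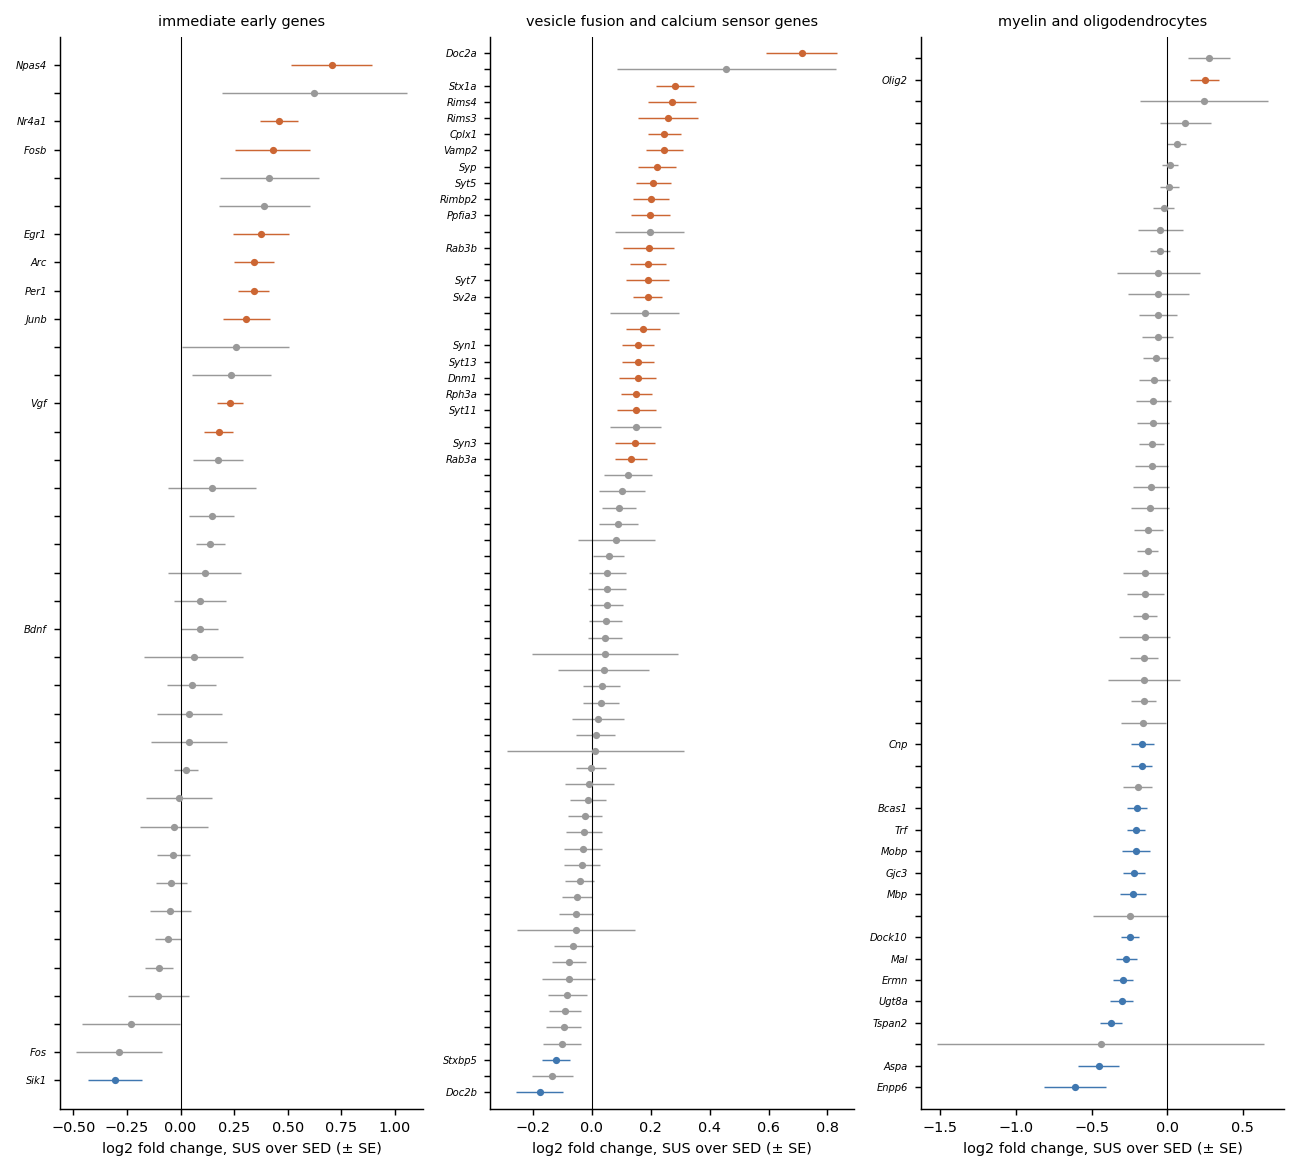
Log2 fold change of SUS over SED with its SE for every tested member of 3 lists, with members of the text named; colours mark an unadjusted p under 0.05, orange higher and blue lower, and grey the rest. Of immediate early genes 9 are orange, of vesicle fusion genes 22, and of myelin genes 14 are blue.

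Other genes of neuronal signalling were near the synapse in function and similar in size of difference. Gng3, a G protein gamma subunit of neurons, stood at 137, 154 and 164 CPM in SED and 195, 178 and 187 CPM in SUS. For Gng3 the log2 fold change was 0.30 (SE 0.06, edgeR adjusted p = 0.0929; DESeq2 adjusted p = 0.0134), with SED 1 furthest below. Sncb, beta-synuclein of presynaptic terminals, stood at 288, 332 and 299.9 CPM in SED and 390.5, 357 and 359 CPM in SUS. Sncb had a log2 fold change of 0.27 (SE 0.06, edgeR adjusted p = 0.117; DESeq2 adjusted p = 0.0134). Faim2, an inhibitor of Fas-driven cell death in neurons, stood at 274, 285 and 282 CPM in SED and 348, 315 and 338 CPM in SUS. For Faim2 the log2 fold change was 0.25 (SE 0.05, edgeR adjusted p = 0.0929; DESeq2 adjusted p = 0.00854). All 3 had higher values without overlap, by 1.23-fold, 1.20-fold and 1.19-fold in the fit. Among 59 glutamate receptor and postsynaptic scaffold genes 12 had higher values and 3 lower at an unadjusted p under 0.05 (20.3% and 5.08%, median 0.04). Nrxn2, a presynaptic adhesion molecule, was at log2 0.25 (SE 0.06), the kainate receptor Grik3 at log2 0.28 (SE 0.08) and the scaffold Dlgap4 at log2 0.16 (SE 0.05). This count rested on few libraries: it was 6 higher and 5 lower without SUS 1, and 3 higher without SED 1.

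Inhibitory and channel genes had members in both directions. Of 38 GABA receptor and interneuron genes 4 had higher and 5 lower values at an unadjusted p under 0.05 (2 and 2 without SUS 1, 6 and 1 with the trends removed), with Vip, a peptide of disinhibitory interneurons, at log2 0.29 (SE 0.11). Of 64 potassium channel and related genes the split was 5 and 5 (3 and 3 without SUS 1, 2 and 4 with the trends removed). Both shares were 7.81%, near the 6.83% and 6.26% of all genes. The pacemaker channel Hcn2 was at log2 0.22 (SE 0.07) and the M-current channel Kcnq5 at log2 −0.23 (SE 0.08). Of 27 sodium and calcium channel genes the split was 5 and 4 (5 and 1 without SUS 1, 4 and 1 with the trends removed). With the trends removed 26 of 38 GABA and interneuron, 42 of 64 potassium channel and 23 of 27 sodium and calcium channel genes had higher values, against 18, 34 and 15 before. Among all 16106 tested genes the number with higher values rose as well, from 8033 to 8825. The beta subunits Scn2b (log2 0.22, SE 0.07) and Scn4b (log2 0.44, SE 0.18, with overlap) had higher values. Scn3a, the pore-forming subunit prominent in immature neurons, stood at 65.1, 62.3 and 65.8 CPM in SED and 48.3, 56.4 and 54.1 CPM in SUS. Scn3a had a log2 fold change of −0.28 (SE 0.07, edgeR adjusted p = 0.125). Neuropeptide genes and their receptors were 8 higher and 1 lower of 45 (median 0.08; 6 higher without SUS 1, 5 without SED 1, 5 without SED 3, 4 with GC and length trends removed). Npy, which calms excitatory circuits, stood at 30.8, 36.1 and 36.6 CPM in SED and 40.5, 39.5 and 39.3 CPM in SUS. For Npy the log2 fold change was 0.20 (SE 0.08, edgeR adjusted p = 0.253), while its receptor Npy2r was at log2 −0.24 (SE 0.09). Cck, of a large class of interneurons and some pyramidal cells, was at log2 0.15 (SE 0.05), Sst, of dendrite-targeting interneurons, at log2 0.16 (SE 0.06), and Pnoc, the nociceptin precursor, at log2 0.52 (SE 0.16).

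Tubulin genes, the subunits of microtubules, had higher values in 14 of 16 members (median 0.11). Under an unadjusted p of 0.05 were 7 higher (43.8%, against 6.83% of all genes) and 0 lower. Tuba4a, an alpha-tubulin of mature neurons, stood at 224, 228 and 222 CPM in SED and 285, 266 and 256 CPM in SUS. Tuba4a had a log2 fold change of 0.26 (SE 0.05, edgeR adjusted p = 0.0929; DESeq2 adjusted p = 0.00720). SED values spanned only a few CPM and each SUS value lay above them. The neuronal beta-tubulins Tubb3 (log2 0.23, SE 0.06) and Tubb4a (log2 0.20, SE 0.06) were close behind. The tubulin count was 6 without SUS 1, 3 without SED 1 and 2 with GC and length trends removed. Kinesin motors, which walk along microtubules, differed in sign, with 5 higher and 2 lower of 31 (1 higher without SUS 1). Kifc2, a minus-end motor of neurons, was at log2 0.21 (SE 0.07). Kif5b, the conventional heavy chain that most cells use, stood at 318, 306 and 314 CPM in SED and 253, 290.4 and 244 CPM in SUS. For Kif5b the log2 fold change was −0.25 (SE 0.06, edgeR adjusted p = 0.128; DESeq2 adjusted p = 0.0262).

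Genes of energy metabolism had higher values in most members. Of 36 genes of glycolysis and lactate handling 29 had higher values (median 0.11). Under an unadjusted p of 0.05 were 14 higher (38.9%, against 6.83% of all genes) and 3 lower. Eno2, the neuronal enolase, stood at 458, 472 and 459 CPM in SED and 575, 501 and 508 CPM in SUS. Eno2 had a log2 fold change of 0.19 (SE 0.06, edgeR adjusted p = 0.184). Hk1, the hexokinase of brain, stood at 298, 312 and 315 CPM in SED and 375, 339 and 335 CPM in SUS. For Hk1 the log2 fold change was 0.18 (SE 0.05, edgeR adjusted p = 0.173). Pdk3, which turns pyruvate away from the mitochondrion (log2 −0.21, SE 0.06), and Slc16a7, the neuronal lactate importer (log2 −0.22, SE 0.06), had lower values without overlap. With the trends removed Pdk3 was at log2 −0.20 and Slc16a7 at log2 −0.055. The glycolysis count was 9 without SUS 1, 7 and 8 without SED 1 and SED 3, and 6 with GC and length trends removed. Nuclear-encoded subunits of the respiratory chain and ATP synthase had higher values in 66 of 80 (median 0.08). Under an unadjusted p of 0.05 were 19 higher (23.8%, against 6.83% of all genes) and 0 lower. The count of 19 was 20 without SUS 1, 12 without SED 3 and 15 with the trends removed. The complex I subunit Ndufv1 stood at 70.1, 73.2 and 66.2 CPM in SED and 84.3, 75.1 and 79.7 CPM in SUS. Ndufv1 had a log2 fold change of 0.19 (SE 0.06, edgeR adjusted p = 0.202). The 13 proteins that mitochondrial DNA encodes went the other way: 11 had lower values (50.1% of all genes did), 6 without overlap (8.56% of all genes), with a median of −0.11. ND4, a core subunit of complex I, stood at 14999, 14499 and 14791 CPM in SED and 12538, 14030.3 and 13214 CPM in SUS. For ND4 the log2 fold change was −0.15 (SE 0.06, edgeR adjusted p = 0.299), with SUS 1 lowest. At an unadjusted p under 0.05 there were 2 lower, 1 without SUS 1, 7 without SUS 2 and 0 with GC and length trends removed, where the median was −0.03.

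Genes of protein synthesis and turnover had mostly higher values. Cytosolic ribosomal proteins had higher values in 75 of 82 members, with a median of only 0.11. Under an unadjusted p of 0.05 were 38 higher (46.3%, against 6.83% of all genes) and 0 lower. Rps15, of the small subunit, stood at 190.1, 195 and 198 CPM in SED and 234, 210.2 and 221 CPM in SUS. Rps15 had a log2 fold change of 0.19 (SE 0.05, edgeR adjusted p = 0.158). Rpl32, of the large subunit, stood at 80.04, 81.9 and 76.8 CPM in SED and 94, 89.4 and 92 CPM in SUS. For Rpl32 the log2 fold change was 0.21 (SE 0.06, edgeR adjusted p = 0.158). Their many pseudogenes can take a share of reads in the counting. The ribosomal count depended on several choices: 22 without SUS 1, 20 and 22 without SED 2 and SED 3, 22 with the choroid plexus score in the model, and 13 with GC and length trends removed, when Rps15 was at log2 0.07 and Rpl32 at log2 0.16. Mitochondrial ribosomal proteins had 6 higher and 2 lower of 78 (4 and 1 without SUS 1, 6 and 3 with the trends removed). Translation factors had 4 and 1 of 52 (1 and 1 without SUS 1, 9 and 1 with the trends removed, 9 higher without SUS 2). Autophagy and vacuolar proton pump genes were 10 higher and 0 lower of 50 (20.00% higher, against 6.83% of all genes). Among them were the autophagosome proteins Map1lc3a (log2 0.29, SE 0.08), Gabarapl1 (log2 0.21, SE 0.06) and Gabarap (log2 0.19, SE 0.06). Atp6v0c, a pump subunit, stood at 505, 533 and 537 CPM in SED and 610.5, 603 and 570.5 CPM in SUS. Atp6v0c had a log2 fold change of 0.18 (SE 0.05, edgeR adjusted p = 0.173). That count was 6 without SUS 1 or without SUS 2, 6 without SED 1 and 5 without SED 3. Pld3, a lysosomal nuclease of neurons, stood at 254, 267 and 259.5 CPM in SED and 320.0, 306 and 294 CPM in SUS. For Pld3 the log2 fold change was 0.24 (SE 0.05, edgeR adjusted p = 0.0929; DESeq2 adjusted p = 0.00979), with every SUS value above every SED value. Proteasome subunits were 7 higher and 1 lower of 48 (5 and 1 without SUS 1, 8 and 1 with the trends removed, 3 higher without SED 3). Heat shock proteins and cochaperones had 3 and 1 of 51 (2 and 0 without SUS 1, 6 and 2 with the trends removed, 6 higher without SUS 3). Mitochondrial ribosomal, translation factor and heat shock lists had 7.69%, 7.69% and 5.88% of members with higher values at that threshold. These shares were near the 6.83% of all genes.

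**Figure D4:**
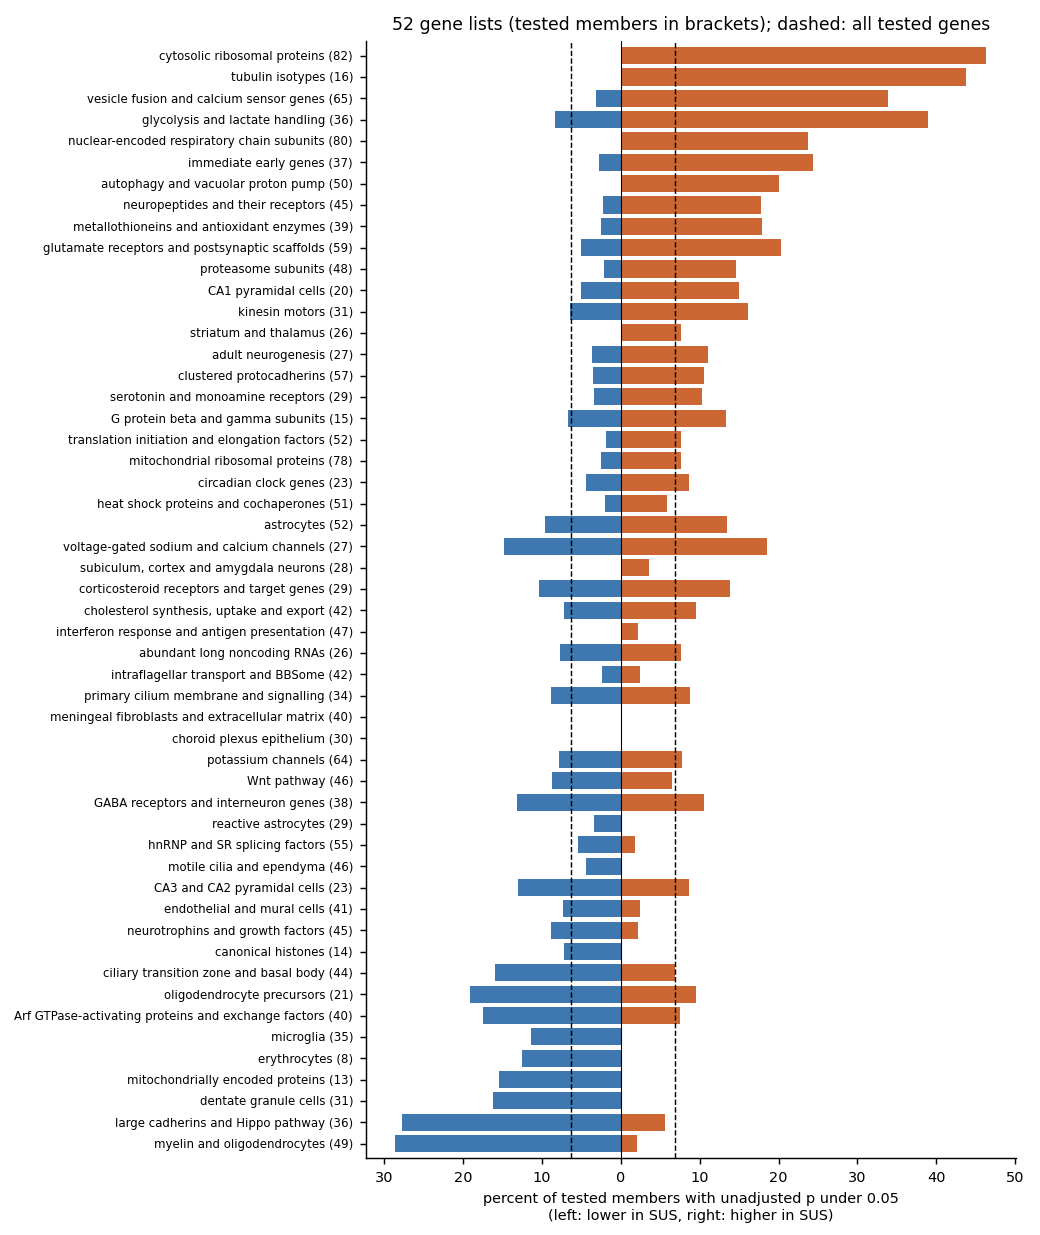
Percent of tested members with an unadjusted p under 0.05 in 52 gene lists, lower in SUS to the left (blue) and higher to the right (orange), with the number of tested members in brackets; dashed lines mark all tested genes (6.26% and 6.83%). Ribosomal proteins, tubulins, vesicle fusion and glycolysis genes stand at the top, and the myelin list at the bottom (28.6% lower).

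**Figure D5:**
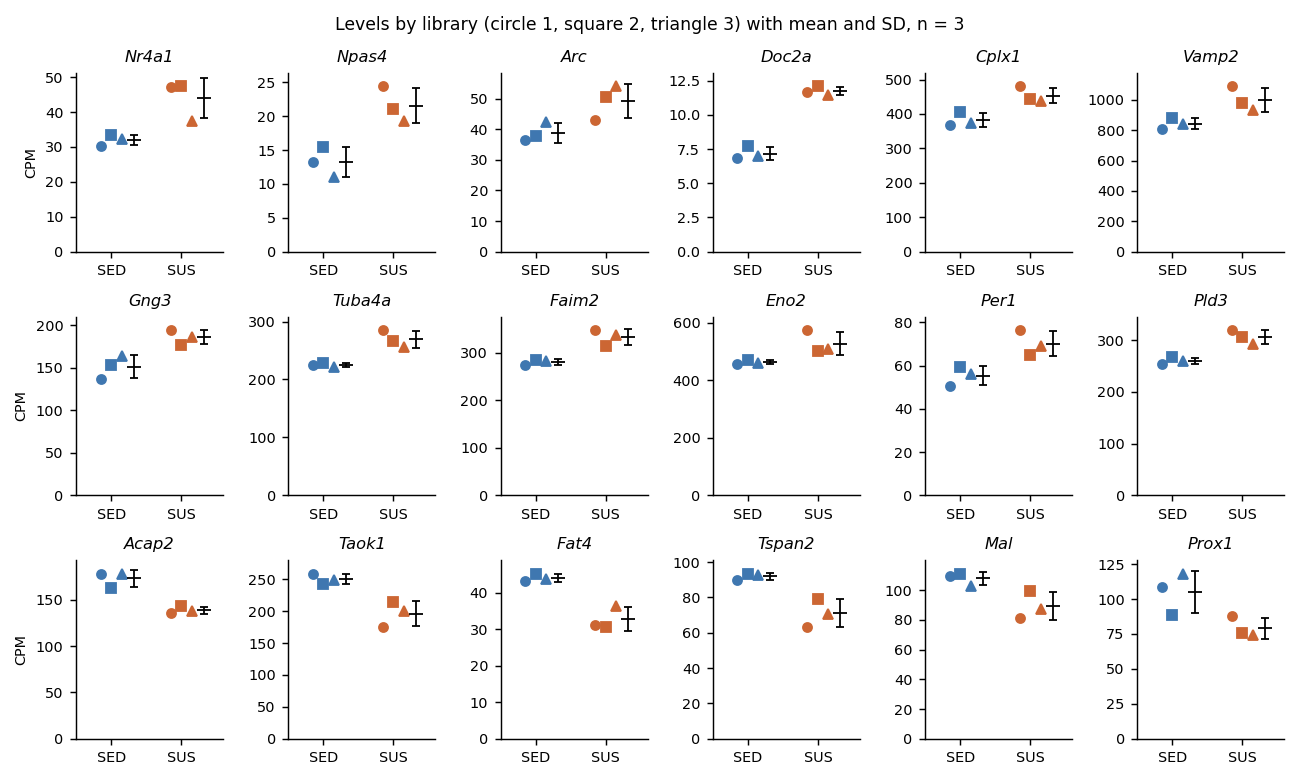
CPM of 18 named genes in each SED (blue) and SUS (orange) library, with circles, squares and triangles for libraries 1, 2 and 3 and black bars for the mean and SD of 3 libraries; axes start at 0. The first 12 genes have every SUS value above every SED value and the last 6 every SUS value below, with small gaps for Arc and Prox1.

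The genes with lower values and the smallest p had different roles. Acap2, a GTPase-activating protein for Arf6 on endosomes, stood at 178, 163 and 178 CPM in SED and 136, 143 and 138 CPM in SUS. Acap2 had a log2 fold change of −0.32 (SE 0.05, edgeR adjusted p = 0.0738; DESeq2 adjusted p = 0.000642). All 3 SUS libraries lay well below the lowest control, by more than the range of the SED libraries. Taok1, a kinase upstream of p38 and of the Hippo pathway, stood at 259, 243 and 249 CPM in SED and 175, 214 and 201 CPM in SUS. For Taok1 the log2 fold change was −0.35 (SE 0.06, edgeR adjusted p = 0.0738; DESeq2 adjusted p = 0.00120), with SUS 1 lowest. Fat4, a giant cadherin that signals to the Hippo pathway, stood at 43.2, 45.3 and 43.7 CPM in SED and 31.2, 30.7 and 36.5 CPM in SUS. Fat4 had a log2 fold change of −0.43 (SE 0.08, edgeR adjusted p = 0.0738; DESeq2 adjusted p = 0.0106), with SUS 3 nearest to the controls. Tjp1, the tight junction scaffold ZO-1, stood at 124, 126 and 140.2 CPM in SED and 95.8, 109.5 and 109 CPM in SUS. For Tjp1 the log2 fold change was −0.31 (SE 0.06, edgeR adjusted p = 0.0929; DESeq2 adjusted p = 0.0134). The same pattern of no overlap held for the GTPase regulator Arhgap5 (log2 −0.29, SE 0.06), the kinase Map3k2 (log2 −0.38, SE 0.07), the lipid kinase Pik3c2a (log2 −0.41, SE 0.09), the transcription regulator Btaf1 (log2 −0.35, SE 0.07), the ubiquitin ligase and helicase Shprh (log2 −0.30, SE 0.06), the centrosomal anchor Nin (log2 −0.27, SE 0.06), and Nkain3 (log2 −0.38, SE 0.07) and Xkr4 (log2 −0.36, SE 0.07). Zbed6 (log2 −0.34, SE 0.07) lies inside another gene, so its counts may hold reads of its host. Of the 30 genes with the smallest p, 15 in each direction, 29 stayed under an unadjusted p of 0.05 with GC and length trends removed, and Arhgap5 did not (log2 −0.11). DESeq2 called 28 of the 30. Both counts come from the same libraries that picked the genes, so they are no independent check.

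As gene groups, large cadherins and Hippo pathway genes had 10 lower and 2 higher of 36 at an unadjusted p under 0.05 (27.8% lower against 6.26% of all genes, median −0.06). Lats2, the core Hippo kinase that holds back YAP, stood at 56.9, 59.7 and 58.6 CPM in SED and 44.5, 49.6 and 49.8 CPM in SUS. Lats2 had a log2 fold change of −0.29 (SE 0.08, edgeR adjusted p = 0.155), and its cofactor Mob1b was at log2 −0.29 (SE 0.11). That count was 6 without SUS 1, 6 without SED 1 and 5 with GC and length trends removed. Arf GTPase regulators had higher values in 26 of 40 (median 0.06), but 7 lower against 3 higher at an unadjusted p under 0.05 (0 and 4 without SUS 1, 1 and 2 with the trends removed). They included Git2 at log2 −0.25 (SE 0.07), Arfgef3 at log2 −0.21 (SE 0.06) and, with higher values, Adap1 at log2 0.18 (SE 0.06). Clustered protocadherins, the barcode-like adhesion proteins of neurons, had 6 higher and 2 lower of 57 (6 and 4 without SUS 1, 6 and 2 with the trends removed). Pcdhga8 was at log2 0.43 (SE 0.13) and Pcdhgb7 at log2 −0.45 (SE 0.12). Isoforms of a protocadherin cluster share their constant exons, so the split of reads between them is uncertain. Wnt pathway genes had 3 higher and 4 lower of 46 (2 and 3 without SUS 1, 2 and 4 with the trends removed, 12 lower without SUS 3), with the scaffold Apc at log2 −0.21 (SE 0.05) and the kinase Gsk3a at log2 0.20 (SE 0.05).

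Myelin genes, made by the oligodendrocytes that wrap axons, had the largest share of lower values at an unadjusted p under 0.05 among the 52 lists. Of 49 tested members 42 had lower values (50.1% of all genes did), with a median of −0.15. Under an unadjusted p of 0.05 were 14 lower (28.6%, against 6.26% of all genes) and 1 higher. Tspan2, a tetraspanin of the myelin membrane, stood at 89.6, 93.5 and 92.7 CPM in SED and 63.4, 79.2 and 70.5 CPM in SUS. For Tspan2 the log2 fold change was −0.37 (SE 0.07, edgeR adjusted p = 0.0929; DESeq2 adjusted p = 0.0134). Ermn, a cytoskeletal protein of late oligodendrocytes, stood at 57, 60.9 and 58.3 CPM in SED and 45.6, 50.6 and 47.5 CPM in SUS. Ermn had a log2 fold change of −0.29 (SE 0.07, edgeR adjusted p = 0.124). Mal, a lipid raft protein of compact myelin, stood at 109, 111 and 103 CPM in SED and 81.1, 99.6 and 87 CPM in SUS. For Mal the log2 fold change was −0.27 (SE 0.07, edgeR adjusted p = 0.134). In each the 3 SUS libraries were below all controls, SUS 1 lowest and SUS 2 nearest to them. Mbp, myelin basic protein and a main structural protein, differed less and stood at 1165, 1293 and 1220.3 CPM in SED and 982, 1143 and 1019 CPM in SUS. Mbp had a log2 fold change of −0.23 (SE 0.08, edgeR adjusted p = 0.267). Ugt8a, the enzyme of the myelin lipid galactosylceramide, was at log2 −0.30 (SE 0.07). Listed after their values were seen, the 14 included Aspa, Bcas1, Cnp, Dock10, Enpp6, Ermn, Gjc3, Mal, Mbp, Mobp, Trf, Tspan2 and Ugt8a, and the steepest were Enpp6 (log2 −0.61, SE 0.20), a phosphodiesterase of newly formed oligodendrocytes, and Aspa (log2 −0.45, SE 0.14), which frees acetate for myelin lipids.

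The myelin score was 0.04, 0.11 and 0.07 in SED 1 to 3 and −0.16, 0.01 and −0.07 in SUS 1 to 3, so every SUS library was below every SED library. The count of lower members was 11 without SUS 1, between 10 and 18 without any one of the 6 libraries, 16 with GC and length trends removed and 12 with the choroid plexus score in the model. In whole tissue, fewer oligodendrocytes and less RNA per oligodendrocyte cannot be told apart. Beyond the counts above, the part of dissection in the myelin values was not tested. Olig2, a transcription factor of the whole lineage, had higher values, at 14.4, 17 and 15.5 CPM in SED and 19.9, 17.7 and 18.2 CPM in SUS. Olig2 had a log2 fold change of 0.25 (SE 0.10, edgeR adjusted p = 0.276). Genes of oligodendrocyte precursors went both ways (2 higher and 4 lower of 21, median 0.00; 0 and 3 without SUS 1, 2 and 1 with the trends removed), with the proteoglycan Vcan at log2 −0.36 (SE 0.10) and Cspg5 at log2 0.15 (SE 0.06).

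Other glial and vascular genes differed member by member. Of 52 astrocyte genes 7 had higher and 5 lower values at an unadjusted p under 0.05 (median 0.03; 3 and 6 without SUS 1, 2 and 2 with the trends removed). Slc4a4, the bicarbonate cotransporter, stood at 179.7, 183 and 183 CPM in SED and 153, 165 and 147 CPM in SUS. For Slc4a4 the log2 fold change was −0.23 (SE 0.05, edgeR adjusted p = 0.124; DESeq2 adjusted p = 0.0328). Aqp4, the water channel of endfeet, stood at 148, 165 and 168 CPM in SED and 127, 139 and 147 CPM in SUS. Aqp4 had a log2 fold change of −0.22 (SE 0.06, edgeR adjusted p = 0.165). S100b was at log2 0.23 (SE 0.07) with higher values. Gfap, a filament gene, stood at 216, 208 and 223 CPM in SED and 248, 197 and 237 CPM in SUS. For Gfap the log2 fold change was 0.08 (SE 0.07, edgeR adjusted p = 0.668), with overlap. Microglial genes had 0 higher and 4 lower of 35 (0 and 3 without SUS 1, 0 and 1 with the trends removed), with the purinergic receptor P2ry12 at log2 −0.18 (SE 0.08) and the fractalkine receptor Cx3cr1 at log2 0.15 (SE 0.15). Interferon response and antigen presentation genes had 1 and 0 of 47 (0 and 2 without SUS 1, 1 and 0 with the trends removed, 5 lower without SUS 3). In endothelial and mural genes (1 higher, 3 lower of 41, median −0.12; 2 and 2 without SUS 1, 1 and 3 with the trends removed) the tight junction gene Ocln stood at 14.8, 14.5 and 14.8 CPM in SED and 9.49, 10.1 and 13.2 CPM in SUS. For Ocln the log2 fold change was −0.43 (SE 0.13, edgeR adjusted p = 0.173). Cldn5, the claudin of the blood-brain barrier, stood at 13.1, 12.1 and 14.3 CPM in SED and 16.7, 12.1 and 13.6 CPM in SUS. Cldn5 had a log2 fold change of 0.10 (SE 0.12, edgeR adjusted p = 0.771). The score of the vascular list was 0.09, 0.04 and 0.08 in SED 1 to 3 and −0.04, −0.27 and 0.10 in SUS 1 to 3, lowest in SUS 2, the library also lowest in meningeal genes.

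Genes tied to glucocorticoids had members in both directions. The receptors had lower values. Nr3c2, the high-affinity mineralocorticoid receptor, stood at 165, 146 and 185 CPM in SED and 128, 136 and 141 CPM in SUS. For Nr3c2 the log2 fold change was −0.29 (SE 0.11, edgeR adjusted p = 0.328). Nr3c1, the glucocorticoid receptor, stood at 79.6, 93.5 and 88.2 CPM in SED and 75.7, 83.6 and 77.9 CPM in SUS. Nr3c1 had a log2 fold change of −0.14 (SE 0.06, edgeR adjusted p = 0.348), with overlap. The induced targets Fkbp5, Tsc22d3 and Sgk1 had log2 fold changes smaller than their SE. Per1 (log2 0.34, SE 0.07) and Mt1 (log2 0.16, SE 0.06), in the same list, had higher values without overlap. Fkbp5, a cochaperone that dampens the receptor, stood at 44, 36.2 and 39.7 CPM in SED and 43.6, 40.5 and 35.9 CPM in SUS. For Fkbp5 the log2 fold change was 0.00 (SE 0.14, edgeR adjusted p = 0.999). Tsc22d3, which encodes GILZ, stood at 27.7, 32.6 and 25.8 CPM in SED and 31.6, 27.6 and 27 CPM in SUS. Tsc22d3 had a log2 fold change of 0.00 (SE 0.10, edgeR adjusted p = 0.995). Sgk1, a kinase, stood at 48, 46.9 and 46.1 CPM in SED and 38.3, 39.97 and 49.5 CPM in SUS. For Sgk1 the log2 fold change was −0.14 (SE 0.18, edgeR adjusted p = 0.796). The groups overlapped in these 3 genes. Hsd11b1, which regenerates active corticosterone inside cells, had lower values, at 11.8, 13.6 and 15.9 CPM in SED and 9.28, 11.7 and 10.8 CPM in SUS. Hsd11b1 had a log2 fold change of −0.38 (SE 0.15, edgeR adjusted p = 0.286). Of 29 genes of receptors and targets 4 had higher and 3 lower values at an unadjusted p under 0.05 (4 and 0 without SUS 1, 2 and 1 with the trends removed), Per1 and the metallothionein Mt1 (log2 0.16, SE 0.06) among the higher. Crh, the stress peptide, had few counts, at 1.26, 0.841 and 1.76 CPM in SED and 1.79, 1.53 and 1.03 CPM in SUS, with overlap. Htr1a, the serotonin 1A receptor, stood at 27.6, 34.6 and 27.2 CPM in SED and 31, 33.1 and 24.4 CPM in SUS. For Htr1a the log2 fold change was −0.02 (SE 0.13, edgeR adjusted p = 0.973), also with overlap. Clock, the partner of Bmal1, had lower values, at 128, 129.9 and 137 CPM in SED and 102, 125 and 113 CPM in SUS. Clock had a log2 fold change of −0.22 (SE 0.06, edgeR adjusted p = 0.169). Its list of clock genes had 2 higher and 1 lower of 23 (3 and 1 without SUS 1, 1 and 0 with the trends removed). These shares were 8.70% and 4.35%, against 6.83% and 6.26% of all genes.

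Markers of hippocampal fields were counted field by field, and differences between fields were not tested. Dentate granule cell genes had lower values in 23 of 31 (median −0.12). Under an unadjusted p of 0.05 were 5 lower (16.1%, against 6.26% of all genes) and 0 higher. Prox1, whose values stand above, had a log2 fold change of −0.41 (SE 0.11, edgeR adjusted p = 0.178; DESeq2 adjusted p = 0.0163), and SUS 1 was only about 1 CPM below SED 2. Dock10 (log2 −0.25, SE 0.06), which is also counted in the myelin list, and Rfx3 (log2 −0.25, SE 0.07) were other members. The dentate count was 9 without SUS 1, 3 with the trends removed and 8 without SED 2. CA1 genes had 3 higher and 1 lower of 20 (median 0.04; 1 and 0 without SUS 1, 1 and 0 with the trends removed). Wfs1 had a log2 fold change of 0.62 (SE 0.24, edgeR adjusted p = 0.348), its 3 SUS values above all controls. The other higher members, Mpped1 (log2 0.17, SE 0.07) and Grid2ip (log2 0.95, SE 0.43), had overlapping groups. Nr3c2, described above as a receptor, was the lower member (log2 −0.29, SE 0.11), without overlap. CA3 and CA2 genes had lower values in 16 of 23 (median −0.11), with 2 higher and 3 lower at an unadjusted p under 0.05 (1 and 4 without SUS 1, 0 and 1 with the trends removed). Cpne4, a copine of CA3, stood at 83.6, 81.9 and 90.8 CPM in SED and 72.3, 71.1 and 73 CPM in SUS. For Cpne4 the log2 fold change was −0.24 (SE 0.06, edgeR adjusted p = 0.155). The 2 members of that list with higher values were Necab2 (log2 0.21, SE 0.07, with overlap) and Chgb (log2 0.16, SE 0.07, without overlap). Markers of subiculum, cortex and amygdala had higher values in 22 of 28 (median 0.14), 1 of them at an unadjusted p under 0.05 (2 and 0 without SUS 1, 1 and 0 with the trends removed, 5 higher without SED 2). Tbr1, a cortical transcription factor, stood at 45.1, 61.9 and 51.8 CPM in SED and 57.6, 73.1 and 65 CPM in SUS. Tbr1 had a log2 fold change of 0.30 (SE 0.15, edgeR adjusted p = 0.434). The part of dissection in these differences was not tested.

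The series' title names primary cilia. Primary cilia are the single antennae through which most neurons and astrocytes receive Hedgehog and other signals. Membrane and signalling genes of the primary cilium had 3 higher and 3 lower of 34 (0 and 1 without SUS 1, 1 and 1 with the trends removed). Both shares were 8.82%, against 6.83% and 6.26% of all genes. Intraflagellar transport and BBSome genes had 1 and 1 of 42 (1 and 0 without SUS 1, 3 and 0 with the trends removed). Arl13b, the GTPase of the ciliary membrane, stood at 8.43, 10.2 and 7.77 CPM in SED and 6.19, 7.29 and 8.22 CPM in SUS. For Arl13b the log2 fold change was −0.28 (SE 0.15, edgeR adjusted p = 0.418). Ift88, a core transport subunit, stood at 19.8, 17.9 and 17.6 CPM in SED and 19.8, 21 and 18.7 CPM in SUS. Ift88 had a log2 fold change of 0.10 (SE 0.09, edgeR adjusted p = 0.664). Both had overlapping groups. Ptch1, the Hedgehog receptor, had lower values without overlap, at 48.4, 55.4 and 47.5 CPM in SED and 40.5, 43.4 and 47.2 CPM in SUS. For Ptch1 the log2 fold change was −0.21 (SE 0.07, edgeR adjusted p = 0.246), with SUS 3 just below SED 3. Transition zone and basal body genes had 7 lower and 3 higher of 44 (15.9% lower, against 6.26% of all genes; 3 without SUS 1, 1 with GC and length trends removed), with Cep170 at log2 −0.18 (SE 0.06) and its paralogue Cep170b at log2 0.18 (SE 0.05), opposite in sign and each without overlap. Motile cilia and ependyma genes had lower values in 37 of 46 (median −0.23), and the median was 0.04 without SUS 1. Choroid plexus genes had lower values in 29 of 30 (median −0.34), 0 at an unadjusted p under 0.05, and the median was 0.10 without SUS 1 and −1.37 without SUS 3.

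Several genes with small p belong to none of the groups above. Bbln, a coiled-coil protein that acts on intermediate filaments, stood at 23.9, 28.5 and 23.4 CPM in SED and 34.4, 35.1 and 32.1 CPM in SUS. Bbln had a log2 fold change of 0.42 (SE 0.09, edgeR adjusted p = 0.0929; DESeq2 adjusted p = 0.0354). Rexo4, an exonuclease of the nucleolus, stood at 26.8, 27.3 and 24.6 CPM in SED and 36, 33.2 and 33.4 CPM in SUS. For Rexo4 the log2 fold change was 0.38 (SE 0.07, edgeR adjusted p = 0.0929; DESeq2 adjusted p = 0.0395). Tmsb10, which binds actin monomers, stood at 116, 157 and 141 CPM in SED and 182, 197 and 186 CPM in SUS. Tmsb10 had a log2 fold change of 0.44 (SE 0.12, edgeR adjusted p = 0.202; DESeq2 adjusted p = 0.00854). In all 3 genes the SUS libraries lay above the SED libraries. Zfp385a, a zinc finger protein that steers p53 target choice (log2 0.39, SE 0.08), Mib2, a ubiquitin ligase (log2 0.31, SE 0.07), Ccdc124, which binds idle ribosomes (log2 0.31, SE 0.07), Prr36 (log2 0.39, SE 0.09) and 6430548M08Rik (log2 0.21, SE 0.05) also had higher values. Erbin, a scaffold that binds the receptor ErbB2, had lower values, at 106, 112 and 112 CPM in SED and 73.6, 96.2 and 87.3 CPM in SUS. For Erbin the log2 fold change was −0.36 (SE 0.08, edgeR adjusted p = 0.124; DESeq2 adjusted p = 0.0142), and the groups did not overlap.

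Among genes with a mean log2 CPM over 0, an unadjusted p under 0.01 and groups that do not overlap, the 5 largest log2 fold changes in each direction were taken. Those printed had group means under 9 CPM. Among genes with higher values 4833439F03Rik stood at 0.492, 0.911 and 0.338 CPM in SED and 2.13, 1.39 and 1.51 CPM in SUS. 4833439F03Rik had a log2 fold change of 1.52 (SE 0.41, edgeR adjusted p = 0.155). Fermt1, an adaptor of integrins, was at log2 1.30 (SE 0.42). Spsb4 (log2 0.82, SE 0.28) and Hmga1b (log2 1.19, SE 0.37), the latter a near copy of another gene so that its counts are uncertain, also had higher values. Among genes with lower values Gm32584 stood at 8.36, 7.99 and 7.23 CPM in SED and 4.33, 3.89 and 4.04 CPM in SUS. For Gm32584 the log2 fold change was −0.94 (SE 0.17, edgeR adjusted p = 0.0738; DESeq2 adjusted p = 0.0134), about 4 CPM in each SUS library against 7 to 9 in SED. Gm51571 (log2 −1.70, SE 0.47), Gm35463 (log2 −1.16, SE 0.36), the zinc finger gene Zfp366 (log2 −0.94, SE 0.23) and Flvcr2, a choline transporter of brain vessels (log2 −0.89, SE 0.26), also had lower values. 

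In the restrained and exercised mice, whose libraries share the model with SUS and SED, levels of the leading genes are given for reference with no comparison. Numbers are those of the labels, while headers in the files number these libraries 2 to 4. Doc2a stood at 9.86, 10.1 and 11.3 CPM in SUS_LE 1 to 3, Nr4a1 at 34, 34.8 and 39.3 CPM, Npas4 at 15, 13.3 and 21.7 CPM, and Tuba4a at 238, 241 and 236 CPM. Acap2 stood at 177, 178 and 171 CPM, Taok1 at 234, 242 and 247 CPM, Tspan2 at 96, 89.6 and 81.9 CPM and Gm32584 at 4.11, 4.68 and 5.92 CPM.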

How the data were processed

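Gene counts, 1 deposited table per library, were made by the authors from RNA of whole ventral hippocampus prepared with a CORALL RNA-seq kit, per the labels' protocols. The submitters' processing notes name fastp, STAR, Salmon and the GRCm39 build. Whether counts use molecular identifiers or strand is not given in the sources used here. The 6 SUS and SED libraries total 14172344 to 14783441 counts and the 9 together up to 15582304. Genes were filtered with filterByExpr, scaled by TMM and fitted by group over all 9 libraries with edgeR's robust quasi-likelihood test (edgeR 4.0.16, R 4.3.3), with Benjamini-Hochberg adjustment over 16106 of 40213 genes. Alternatives were DESeq2 1.42.0 (adjusted over all tested genes, since the cutoff of its independent filtering moved with the numerical library), limma 3.58.1 voom, other scaling and filters, a replicate block, GC and length offsets (92.7% of genes matched), left-out libraries and a choroid plexus covariate. The last, the fits without libraries low in Ttr and the repeats of DESeq2 were chosen after seeing the data.

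Members and lists were chosen with earlier results of these data known. Genes named in the text are, among genes with a mean log2 CPM over 0, the 15 with the smallest p and the 5 with the largest change (unadjusted p under 0.01, groups apart) in each direction, and further up to 4 of each of 52 lists by p, 30 always named, and the 10 largest that DESeq2 called in each direction. Promoters are from a RefSeq table of GRCm38.p6. Replicate numbers did not pair the libraries: deviations of SED and SUS libraries with the same number correlated at −0.15, 0.08 and −0.12. A few genes that the rule names are not reported here.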

Additional observations from a re-analysis of the deposited data

How the results depend on the processing

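The count of genes called by edgeR was 0 with other scaling factors, a stricter filter, the 6 libraries alone, no robust step, voom, GC and length trends removed and a choroid plexus covariate. It was 53 with DESeq2, 297 with no filter, 0 to 74 without 1 library, and 14 without the 3 libraries lowest in Ttr. With the replicate block it was 1 (Gm2436), with the replicate block and GC and length trends removed also 1, with numbers from the labels, which differ from the file headers for SUS_LE, and which do not pair the libraries. Without SUS 3 the 74 were 20 higher and 54 lower, without SUS 2 there were 27 and without SED 2 3. DESeq2's count ran from 0 to 163 without 1 library. Genes at an unadjusted p under 0.05 numbered 2108, 1460 to 2658 without 1 library, 1358 with the replicate block and GC and length trends removed, and 1597 with the choroid plexus covariate. Genes whose groups do not overlap numbered 4275 to 5383 without 1 library, as fewer values must be apart. Among genes of the text with a log2 fold change larger than its SE, Kcnq1ot1 changed sign, from log2 −0.19 to 0.084 with GC and length trends removed. Kcnq1ot1 is antisense to Kcnq1 and uncertain without strand. Genes with a log2 fold change smaller than their SE, such as Cldn5, Htr1a and Fkbp5, changed sign as well. Other genes kept their sign but shrank under the same removal, and these were picked after their values were seen. Nr3c1 was then at log2 −0.040, Clock at log2 −0.087, Apc at log2 −0.082 and Cck, with higher values, at log2 0.050. Depth limits genes of few counts, and 3 libraries per group cannot reach an exact permutation p below 0.1.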

Other observations

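A few genes had 0 counts in some libraries of a group and many in others. They were chosen after their values were seen. Fam220a had 14, 0 and 178 counts in SED 1 to 3 and 177, 453 and 410 in SUS 1 to 3 (edgeR adjusted p = 0.626). Sagsin1 had 422, 424 and 307 in SED and 273, 0 and 0 in SUS (edgeR adjusted p = 0.639). Derpc had 6, 0 and 459 in SED and 57, 6 and 21 in SUS (edgeR adjusted p = 0.606). Gm2436 had 49, 0 and 40 in SED and 0 in every SUS library, and was the gene called with the replicate block (edgeR adjusted p = 0.00238). Tmem81 was at 0 in every SED library and in SUS 1, and at 1.18 and 0.754 CPM in SUS 2 and SUS 3. DESeq2 called it (adjusted p = 0.0372) and edgeR did not (adjusted p = 0.256).

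Reactive astrocyte and interferon genes had lower values in most members without passing the test singly. The median log2 fold change was −0.16 over 29 genes of reactive astrocytes, with 0 higher and 1 lower at an unadjusted p under 0.05. It was −0.18 over 47 interferon response and antigen presentation genes, 35 of which had lower values. Without SUS 1 these medians were −0.14 and −0.16, and without SUS 2 they were −0.06 and −0.11. Metallothioneins and antioxidant enzymes had 7 higher and 1 lower of 39 (median 0.03), and 3 higher without SUS 1.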
